A study of Mus musculus with 12 samples.

Results

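The epithelial defence genes followed here were Itln1, Pigr, Muc1, Ceacam1 and Lgals3, which encode lectins, the transporter of secretory immunoglobulins and surface glycoproteins of the gut lining. They were chosen by name, and 4 of the 5 have values among the 556 genes of the panel that have values. Lgals3 has no row in the table and was not analysed here. The values come from terminal ileum of 12 male C57BL/6 mice killed at P50, which the labels call week 7, with 3 mice in each of 4 groups. SPF control mice were specific pathogen-free and had no antibiotic, SPF PAT mice were specific pathogen-free and were given tylosin, GF control mice were germ-free and had no antibiotic, and GF PAT mice were germ-free and were given tylosin. Tylosin, a macrolide antibiotic, was in the drinking water for 5 days from P5, and pups took it up through their mothers' milk. The comparisons ask whether the microbiota, an early antibiotic course, or both together alter these genes weeks after the exposure. SPF litters came from purchased mice and GF mice from a colony bred at the study's own facility, so colonization and colony of origin cannot be told apart. No litter is given in the labels, and mice of a group may share one, so p-values measure the spread between these mice.

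The intestinal epithelium is kept apart from luminal bacteria by mucus, secreted antibodies, lectins and antimicrobial proteins. Pigr encodes the polymeric immunoglobulin receptor, which epithelial cells use to carry dimeric IgA from the lamina propria into the lumen, and bacterial products and cytokines such as IL-17 and interferon-γ are known to induce it. Itln1 encodes intelectin-1, a lectin of Paneth and goblet cells that binds sugars found on microbial surfaces. Ceacam1 encodes an immunoglobulin-family adhesion molecule of the epithelial surface, also carried by leukocytes and endothelium, that inhibits signalling and serves some bacteria as a receptor. Muc1 encodes a transmembrane mucin, and Lgals3 encodes galectin-3, a lectin that binds β-galactosides.

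The NanoString nCounter panel counts reporter probes hybridized to each transcript, and the values are log2 normalized counts. Whole counts were recovered from them, with totals of 600308 to 923395 a mouse, and the 3 SPF control mice (806043 to 923395) lay above all other mice. Pigr had 25041 to 80927 counts in a mouse, Itln1 52457 to 96536, Ceacam1 16069 to 43417 and Muc1 only 4 to 21. Counting error was therefore at most 0.789% for the 3 abundant genes and 21.8 to 50% for Muc1. These errors cover counting alone, whereas the intervals of differences given below rest on the spread between mice. Negative control probes hold no values here, so how far Muc1 lies above background is unknown. None of the 5 epithelium markers (Cdh1, Epcam, Vil1, Krt8 and Krt20) has values, so the share of epithelium in each piece of tissue could not be read from them. The B cell markers Cd79a, Cd79b, Ms4a1, Pax5 and Cr2 were all measured, and their summed normalized count ran from 98.7 to 4124, with wide spread within every group. SPF PAT mouse 21 stood apart from the other SPF PAT mice, with 3776 against 119 and 171. In whole tissue, fewer cells of a type and less RNA per cell cannot be told apart, and this holds for every gene below.

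The sequence before the start of Pigr and of Ceacam1 is shown because these genes had the most alike levels over the 12 mice, and that of Itln1 because its pattern over the groups was another one. Sequences are RefSeq, build GRCm38.p6, written 5′ to 3′ on the strand of the gene, from chr1:130826434-130826683 on the plus strand for Pigr, chr7:25477648-25477875 on the minus strand for Ceacam1 and chr1:171535326-171535544 on the minus strand for Itln1. Capitals mark the E-box CACGTG, a motif of basic helix-loop-helix factors such as USF.
Pigr: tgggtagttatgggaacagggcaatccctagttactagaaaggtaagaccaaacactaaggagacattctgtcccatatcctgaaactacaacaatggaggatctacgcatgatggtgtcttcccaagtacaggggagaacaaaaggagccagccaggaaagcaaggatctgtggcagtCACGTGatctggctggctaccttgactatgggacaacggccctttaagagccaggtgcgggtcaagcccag
Ceacam1: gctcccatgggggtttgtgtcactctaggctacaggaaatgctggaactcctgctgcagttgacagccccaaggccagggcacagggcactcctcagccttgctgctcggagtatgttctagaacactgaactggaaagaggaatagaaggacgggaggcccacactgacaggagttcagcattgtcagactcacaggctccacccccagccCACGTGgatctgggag
Itln1: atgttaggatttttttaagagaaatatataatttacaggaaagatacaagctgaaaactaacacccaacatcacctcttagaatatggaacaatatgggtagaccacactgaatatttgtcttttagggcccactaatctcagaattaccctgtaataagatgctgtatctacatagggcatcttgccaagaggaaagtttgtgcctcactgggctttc
In the 250 bases before the gene start of the table, the E-box lay 71 to 66 bases before the start of Pigr and 38 to 33 bases before that of Ceacam1. For Ceacam1 and Itln1 the last 22 and 31 bases of that window lie within the annotated gene and are not printed. The position given for Ceacam1 counts these 22 bases, so its E-box lies nearer the end of the printed sequence. The motif reads the same on both strands. It was not found in the windows of Itln1, Muc1 and Lgals3, and 6.04% of 32536 windows of this length hold it. The interferon-response-like motif GAAANNGAA, searched on both strands, was in none of the 5 windows and in 7.15% of all windows. A match is a description of letters and does not show a bound site.

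Over the 4 groups, Pigr and Ceacam1 had the same order of mean levels, from SPF control over SPF PAT and GF control to GF PAT, whereas Itln1 was highest in SPF PAT mice. In limma's F-test over the groups, Pigr (adjusted p = 0.0270) and Itln1 (adjusted p = 0.0336) passed the threshold of 0.05, and Ceacam1 (adjusted p = 0.0606) and Muc1 (adjusted p = 0.407) did not. That is 2 of the 4 genes, where 33.1% of all 556 genes passed. No pair of groups next to each other in the order of means passed the threshold for any of the 4 genes. The call of Itln1 was lost without any 1 of 9 mice, with adjusted p up to 0.109, and that of Pigr without any 1 of 5, with adjusted p up to 0.0964. The plot of levels by mouse shows the values.

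**Figure D1:**
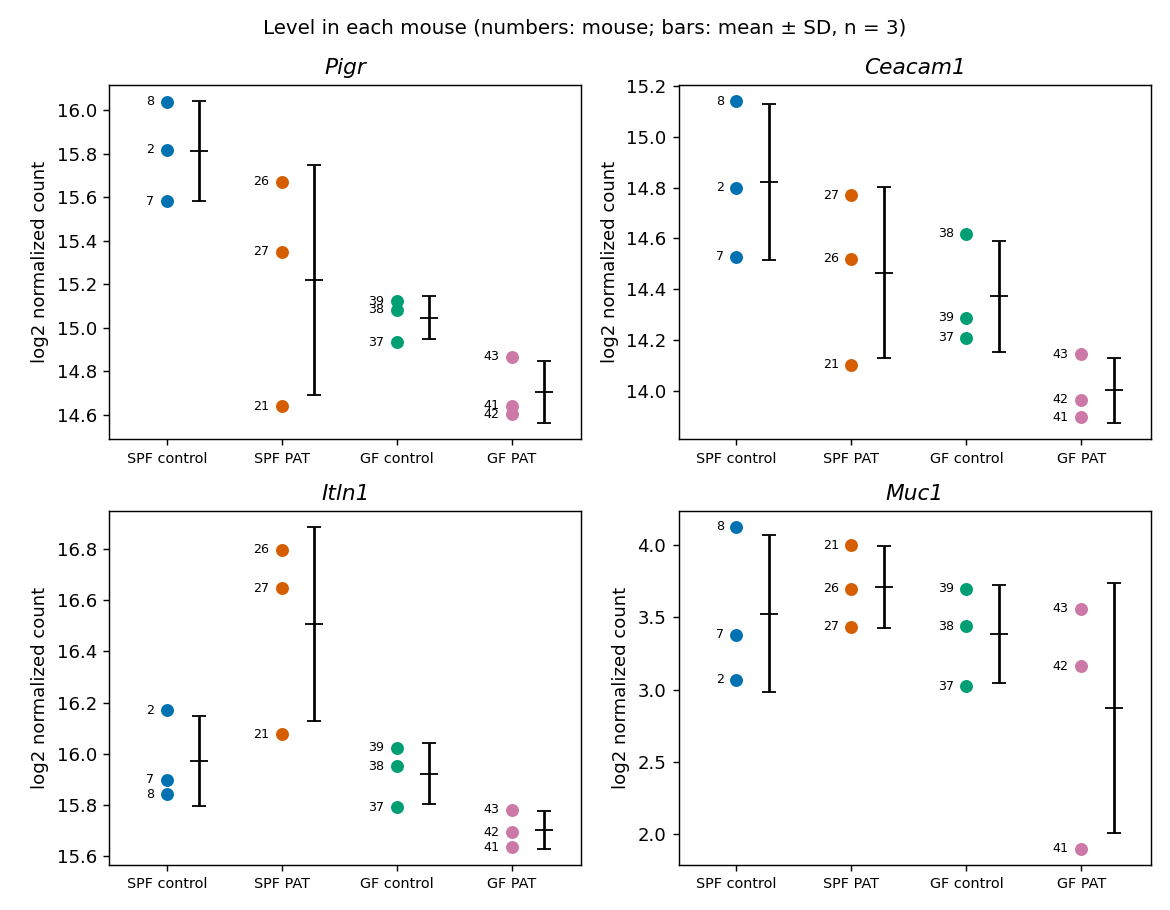
Each panel plots the log2 normalized count of 1 gene (y axis, its own scale) in the 4 groups, with 1 point per mouse labelled by mouse number and bars for the mean ± SD of 3 mice. For Pigr the 3 SPF control mice lie above all 6 GF mice, for Itln1 SPF PAT mice 26 and 27 lie above all other mice, and SPF PAT mouse 21 is the lowest of its group for Pigr, Ceacam1 and Itln1.

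Pigr, the IgA transporter, was higher in colonized than in germ-free mice without antibiotic. In SPF control mice its log2 normalized counts were 15.82 in mouse 2, 15.58 in mouse 7 and 16.04 in mouse 8. In GF control mice they were 14.93 in mouse 37, 15.08 in mouse 38 and 15.12 in mouse 39. The groups did not overlap, and every SPF control mouse lay above every GF control mouse. The difference was 0.77 (standard error 0.24), a 1.70-fold higher level, and passed the threshold (adjusted p = 0.0257 in limma). Pigr was the only 1 of the 4 genes called in this comparison, in which 42.1% of all genes were called, so the share of the 4 genes called was below that of all genes. It was likewise the only one higher without overlap, against 25.4% of all genes. As a share of all panel counts, Pigr took 7.30 to 8.76% in SPF control mice and 4.60 to 5.25% in GF control mice. The call depended on single mice, since adjusted p was between 0.0528 and 0.0711 without any 1 of GF control mice 37, 38 and 39 or SPF control mice 2 and 8, with a difference of 0.65 to 0.80 in each case. It was also lost with each mouse centred on its median, where the difference was 0.33 (adjusted p = 0.471).

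In SPF PAT mice, Pigr was 14.64 in mouse 21, 15.67 in mouse 26 and 15.35 in mouse 27. Mouse 26 lay within the range of the SPF control mice, mouse 27 lay between SPF control and GF control mice, and mouse 21 lay at the level of the GF PAT mice. The difference from SPF control mice was -0.59 (standard error 0.24, 95% interval -1.12 to -0.06, unadjusted p = 0.0324), which did not pass after adjustment over all genes (adjusted p = 0.0896). None of the 4 genes was called in this comparison, where 26.3% of all genes were. Without mouse 26 the difference was -0.82 (adjusted p = 0.0385), and without mouse 21 it was -0.30 (adjusted p = 0.170), so the size of the difference depended on which mouse was left out. Against GF control mice, SPF PAT mice differed by 0.17 (95% interval -0.36 to 0.70, adjusted p = 0.871).

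In GF PAT mice, Pigr was 14.64 in mouse 41, 14.60 in mouse 42 and 14.87 in mouse 43, and all 3 lay below the 3 GF control mice. The difference was -0.34 (standard error 0.24) and did not pass the threshold (adjusted p = 0.693). The PAT effect on Pigr in SPF mice was not different from that in GF mice past the threshold, with a difference between the effects of -0.25 (95% interval -1.0 to 0.50, adjusted p = 0.588). Without SPF PAT mouse 21 its sign turned (0.039, adjusted p = 0.915), without SPF PAT mouse 26 it was -0.48 (adjusted p = 0.283) and without SPF control mouse 8 it was -0.14 (adjusted p = 0.769).

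Ceacam1 had the same order of group means as Pigr, and none of its differences passed the threshold. In SPF control mice it was 14.80 in mouse 2, 14.53 in mouse 7 and 15.14 in mouse 8. In GF control mice it was 14.21 in mouse 37, 14.62 in mouse 38 and 14.29 in mouse 39. GF control mouse 38 lay above SPF control mouse 7, so these groups overlapped. The difference was 0.45 (standard error 0.21, 95% interval -0.02 to 0.92, adjusted p = 0.107). SPF PAT mice had 14.10 in mouse 21, 14.52 in mouse 26 and 14.77 in mouse 27, and 2 of the 3 lay below all SPF control mice. The difference from SPF control mice was -0.36 (standard error 0.21, adjusted p = 0.223), and it came to -0.18 without SPF PAT mouse 21 (adjusted p = 0.489) and to -0.20 without SPF control mouse 8 (adjusted p = 0.463). In GF PAT mice Ceacam1 was 13.89 in mouse 41, 13.96 in mouse 42 and 14.14 in mouse 43, all below the GF control mice, with a difference of -0.37 (standard error 0.21, adjusted p = 0.693). The PAT effects in SPF and GF mice differed by 0.01 with a 95% interval of -0.65 to 0.68, wide enough to hold effects as large as those estimated.

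Among GF mice, Itln1 as well as Pigr and Ceacam1 lay lower in all 3 PAT mice than in all 3 control mice. That is 3 of the 4 genes, where 7.55% of all genes were lower without overlap in this comparison, and the genes share their mice and, for Pigr and Ceacam1, their pattern over mice. No gene of the panel passed the threshold in limma here (0.0%). Of the 556 genes 28 had an unadjusted p under 0.05 in limma, none of them among the 4. That is about the share such a cut-off gives where no gene differs. With voom on the recovered counts 1 gene of the panel passed. The summed normalized count of the B cell markers was 918 to 3570.2 in GF PAT mice and 98.7 to 2146 in GF control mice. These ranges overlap, and 0 of the 5 markers passed in this comparison.

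Itln1, the intelectin gene, had the highest count of all genes in 11 of the 12 mice and reached its highest levels in SPF PAT mice. Its log2 normalized count was 16.08 in SPF PAT mouse 21, 16.80 in mouse 26 and 16.65 in mouse 27. In SPF control mice it was 16.17 in mouse 2, 15.90 in mouse 7 and 15.84 in mouse 8. Mice 26 and 27 lay above every other mouse of the study, whereas mouse 21 lay within the SPF control range. The mean in SPF PAT mice was 0.54 higher (standard error 0.18, 1.45-fold, unadjusted p = 0.0156), which fell just short of the threshold (adjusted p = 0.0543). Without mouse 21 the difference was 0.75 (adjusted p = 0.00713). It passed as well with an intensity trend in limma (adjusted p = 0.0448), without genes of low counts (0.0408), with scaling to the total count (0.0241) and with voom (0.0454). It did not pass under Tukey HSD (adjusted p = 0.228) or with only the 2 groups compared (0.157). Under quantile normalization the difference was 0.25 (adjusted p = 0.334). That scaling gives Itln1 the same value in the 11 mice where it is the highest gene. The 0.25 comes from SPF control mouse 8, where Pigr was highest, so that setting cannot test the difference. Without mouse 26 the limma difference was 0.39 (adjusted p = 0.179) and without mouse 27 it was 0.47 (adjusted p = 0.169). Itln1 took 10.9 to 16.1% of all panel counts in SPF PAT mice and 7.64 to 10.9% in SPF control mice.

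Without antibiotic, Itln1 did not separate colonized from germ-free mice. GF control mice had 15.79 in mouse 37, 15.95 in mouse 38 and 16.02 in mouse 39, within or next to the SPF control range. The difference was 0.05 with a 95% interval of -0.36 to 0.46 (adjusted p = 0.843), and its sign turned with each mouse centred on its median (-0.39, adjusted p = 0.306). GF PAT mice had 15.63 in mouse 41, 15.69 in mouse 42 and 15.78 in mouse 43, the lowest levels of the study, with a difference from GF control mice of -0.22 (standard error 0.18, adjusted p = 0.693). The estimated PAT effect was thus above 0 in SPF mice and below 0 in GF mice. Neither effect passed the threshold, and the 95% interval in GF mice, -0.63 to 0.19, held 0. The difference between the effects was 0.76 (95% interval 0.18 to 1.34, unadjusted p = 0.0160, adjusted p = 0.0657 in limma). None of the 4 genes passed for this difference, where 17.1% of all genes did. Without SPF PAT mouse 21 the difference between the effects of PAT on Itln1 was 0.97 (adjusted p = 0.0110), without mouse 26 it was 0.61 (adjusted p = 0.131) and without mouse 27 it was 0.69 (adjusted p = 0.146).

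Among mice that had received tylosin, every SPF mouse lay above every GF mouse for Itln1. The difference was 0.81 (standard error 0.18, 1.75-fold, adjusted p = 0.0820), and its unadjusted p of 0.00148 was the 10th smallest of the 556 genes. Only 1.44% of all genes passed in this comparison and none of the 4 did. Itln1 was the only one of the 4 higher without overlap, where 8.45% of all genes were. Without SPF PAT mouse 21 Itln1 passed, with a difference of 1.02 (adjusted p = 0.00981). Without mouse 26 the difference was 0.66 (adjusted p = 0.271) and without mouse 27 it was 0.74 (adjusted p = 0.261), and adjusted p was 0.273 with only the 2 groups compared and 0.374 under median centring. Pigr differed by 0.52 (adjusted p = 0.504), Ceacam1 by 0.46 (adjusted p = 0.50) and Muc1 by 0.84 (adjusted p = 0.565). SPF PAT mice were also set against GF control mice, where 2.16% of all genes and none of the 4 passed. There Itln1 was 0.59 higher (standard error 0.18, adjusted p = 0.214), without overlap, and it passed without mouse 21 (0.80, adjusted p = 0.0352) and came to 0.44 without mouse 26 (adjusted p = 0.457). These comparisons share the SPF PAT mice with each other and with the comparison within SPF mice, so the levels of mice 26 and 27 enter all of them.

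**Figure D2:**
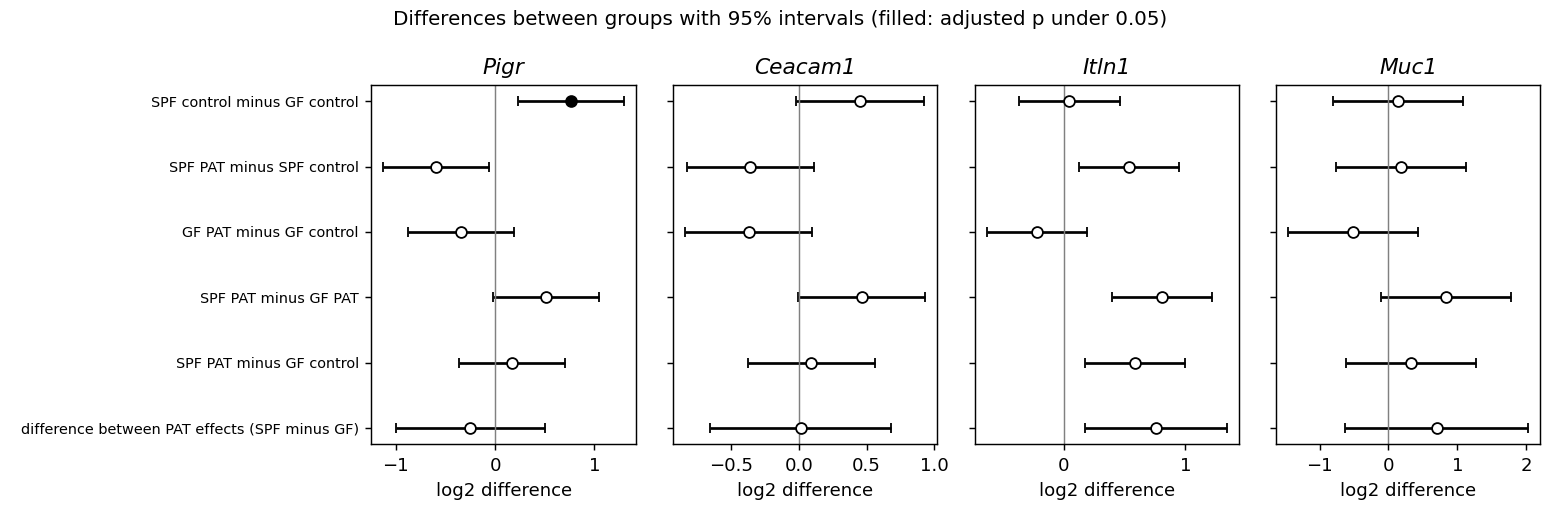
The log2 difference (x axis, its own scale in each panel) of each gene is plotted for 5 comparisons of groups and for the difference between the PAT effects, with 95% intervals from limma over 12 mice. The filled point, Pigr in SPF control minus GF control mice (0.77), is the only difference with an adjusted p under 0.05, and the intervals of Itln1 lie above 0 in the 4 comparisons that include SPF PAT mice.

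Muc1, the transmembrane mucin gene, had counts of 4 to 21 a mouse, and none of its differences passed the threshold. Its counts in single mice were 10, 13 and 21 in SPF control, 9, 11 and 17 in SPF PAT, 8, 9 and 13 in GF control and 4, 9 and 11 in GF PAT mice. All 4 groups overlapped. Mean log2 normalized counts were 3.52 ± 0.54 in SPF control, 3.71 ± 0.28 in SPF PAT, 2.87 ± 0.87 in GF PAT and 3.39 ± 0.34 in GF control mice (SD, n = 3 each). The difference between SPF control and GF control mice was 0.14 with a 95% interval of -0.81 to 1.08 (adjusted p = 0.798), and that between SPF PAT and SPF control mice was 0.19 with an interval of -0.76 to 1.13 (adjusted p = 0.741). GF PAT differed from GF control mice by -0.51 (standard error 0.42, adjusted p = 0.693), and the PAT effects differed by 0.70 (adjusted p = 0.378). With single mice left out these ran from -0.86 to -0.025 and from 0.21 to 1.04, with the value nearest 0 in each case without GF PAT mouse 41.

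Within groups, Pigr and Ceacam1 ran lower with more B cell marker counts, by slopes that passed the threshold only with SPF PAT mouse 21 included. The summed normalized count of the 5 B cell markers was 325 in SPF control mouse 8 against 3529 in mouse 2 and 4124 in mouse 7, and 119 and 171 in SPF PAT mice 27 and 26 against 3776 in mouse 21. It was 98.7, 295 and 2146 in GF control mice 39, 38 and 37, and 918, 2027 and 3570.2 in GF PAT mice 43, 42 and 41. The mouse with the most B cell marker counts had the lowest Ceacam1 of its group in 4 of 4 groups and the lowest Pigr and the lowest Itln1 in 3 of 4 each. In a fit with the groups and the mean log2 of these markers, chosen after the spread of the markers had been seen, the slope was -0.13 for Pigr (standard error 0.03, adjusted p = 0.0133) and -0.11 for Ceacam1 (standard error 0.03, adjusted p = 0.0203) per log2 unit of the markers. For Itln1 it was -0.07 (adjusted p = 0.120) and for Muc1 -0.11 (adjusted p = 0.347). Thus 2 of the 4 genes had a slope below 0 past the threshold, where 17.4% of all genes did. Without SPF PAT mouse 21 neither slope passed, at -0.077 for Pigr (adjusted p = 0.164) and -0.099 for Ceacam1 (adjusted p = 0.133), and that for Itln1 was -0.010 (adjusted p = 0.853), so that 0 of the 4 genes and 5.22% of all genes passed.

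With the B cell markers in the fit of all 12 mice, the differences of Pigr and Ceacam1 that involve SPF control mice were larger, and the PAT effect on Itln1 and the differences within GF mice were smaller. Between SPF control and GF control mice Pigr then differed by 0.98 (standard error 0.15, adjusted p = 0.00103) and Ceacam1 by 0.63 (standard error 0.14, adjusted p = 0.00619), 2 of the 4 genes where 48.6% of all genes passed. For PAT against control within SPF mice they were -0.86 for Pigr (standard error 0.16, adjusted p = 0.00613) and -0.58 for Ceacam1 (standard error 0.15, adjusted p = 0.0215), again 2 of the 4 genes, where 25.5% of all genes passed. Itln1 differed there by 0.39 (standard error 0.16, adjusted p = 0.110). Within GF mice, PAT against control came to -0.09 for Pigr, -0.16 for Ceacam1 and -0.08 for Itln1, with adjusted p of 0.917 to 0.964. The difference between the PAT effects on Pigr was -0.76 (standard error 0.24, adjusted p = 0.0734). Without SPF PAT mouse 21 this fit kept both calls between SPF control and GF control mice, with 0.89 for Pigr (adjusted p = 0.00194) and 0.62 for Ceacam1 (adjusted p = 0.0151), 2 of the 4 genes where 46.0% of all genes passed. It lost both calls for PAT against control within SPF mice, with -0.58 for Pigr (adjusted p = 0.103) and -0.54 for Ceacam1 (adjusted p = 0.167), and Itln1 differed there by 0.72 (adjusted p = 0.0607), so that 0 of the 4 genes passed, where 8.09% of all genes did. The difference between the PAT effects on Pigr was then -0.39 (adjusted p = 0.476). Whether B cell tissue in the samples had a part in the levels without this term was not tested.

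**Figure D3:**
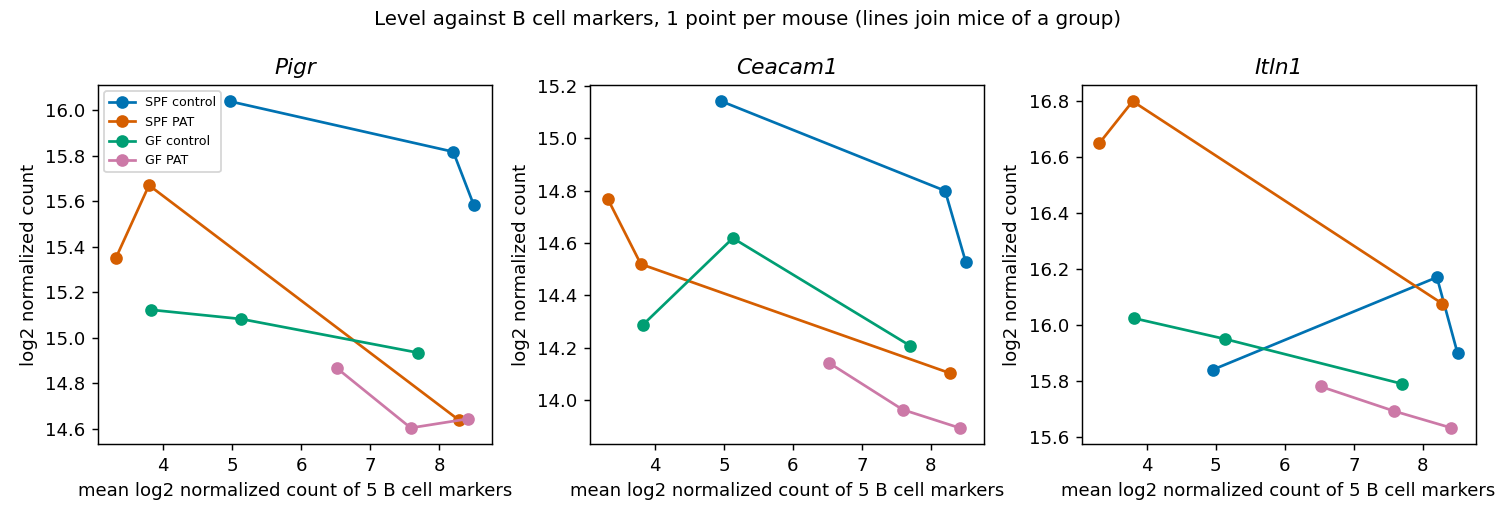
Each panel plots the log2 normalized count of Pigr, Ceacam1 or Itln1 (y axis) against the mean log2 normalized count of 5 B cell markers (x axis), with 1 point per mouse and lines that join the 3 mice of a group. Lines run downward for most groups, with slopes of -0.13, -0.11 and -0.07 over all groups, and at like marker levels the SPF control mice lie highest for Pigr and Ceacam1.

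Some other cell type markers moved with the groups. T cell markers (7 of 8 measured) summed to 993 to 1590 in SPF control mice, 347 to 984 in SPF PAT mice, 290 to 717 in GF control mice and 461 to 886 in GF PAT mice, the direction of Pigr between SPF control and GF mice. The brush border genes Dpp4, Mme and Abcb1a (3 of 4 measured), which enterocytes carry, ran the other way, with 12377 to 15789 in SPF control, 27515 to 37882 in SPF PAT, 50090 to 68513 in GF control and 50200 to 62712 in GF PAT mice. Plasma cell markers (4 of 5 measured) summed to 5927 to 8939 in SPF control, 6058 to 7955 in SPF PAT, 6193 to 6909 in GF control and 4869 to 5884 in GF PAT mice, lowest in the group with the lowest Pigr, Ceacam1 and Itln1. Of these 4 markers Irf4 and Tnfrsf17 were called higher in SPF control than in GF control mice (median of the 4 markers 1.42). Irf4 and Prdm1 were called lower in SPF PAT than in SPF control mice (median -0.82). These called markers had the direction of Pigr, but the summed count did not. Its median was 6320 in SPF control, 7075 in SPF PAT and 6428 in GF control mice, with overlapping ranges. Macrophage and dendritic cell markers (6 of 8 measured) summed to 1654 to 2356 in SPF control mice and 1270 to 2009 in the others, and neutrophil markers (4 of 6) to 73.6 to 128 against 23.4 to 65.4. Endothelium (3 of 4) and stroma markers (2 of 4) summed to 1046 to 1358 and 239 to 408 over all mice. The part of these cell types in the levels of Pigr, Ceacam1 and Itln1 was not tested.

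As a description over the 12 mice, which share the groups and the size factors, the level of Ceacam1 was most like that of Pigr (Pearson r = 0.91), and this pair also varied together within groups (r = 0.75 for deviations from group means). Pigr was most like Itgam, an integrin gene of macrophages and neutrophils (r = 0.94), Nfkbiz, which encodes an inhibitor-like regulator of NF-κB induced by bacterial products (r = 0.94), and Saa1_2, a probe for serum amyloid A genes (r = 0.91). Ceacam1 was next most like the immunoproteasome gene Psmb10 (r = 0.91) and Nfkbiz (r = 0.90). Itln1 was most like C4bp, a complement regulator gene (r = 0.88), the chemokine gene Ccl6 (r = 0.85) and the phospholipase gene Pla2g2a (r = 0.83). Muc1 was most like Cmklr1, a chemerin receptor gene (r = 0.75), Fcgr4, an Fc receptor gene (r = 0.73), and Il1r1, an interleukin-1 receptor gene (r = 0.70), with counting error in every Muc1 value. Itln1 and Pigr correlated by 0.45 over all mice and by 0.81 within groups.

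The genes around Pigr in IgA transport and induction were read from a list of 48, of which 36 were measured. Between SPF control and GF control mice 20 of the 36 passed the threshold, 10 higher and 10 lower, where 42.1% of all genes passed, with a median log2 difference of 0.44 against 0.08 over all genes. Those higher included Il17a, a cytokine of type 17 immunity, and Tnfrsf17, the receptor BCMA of plasma cells, by 1.68 and 2.65. Those lower included the interferon-γ receptor genes Ifngr1 and Ifngr2, by -1.01 and -0.85, and Ccl25, the small intestinal chemokine that draws Ccr9-bearing cells, by -1.08. Between SPF PAT and SPF control mice 13 of the 36 passed, 7 higher and 6 lower, where 26.3% of all genes passed, and the median was -0.29 against -0.02 over all genes. In GF mice 0 of 36 passed in limma for PAT against control, as did 0.0% of all genes. Against GF PAT and against GF control mice, SPF PAT mice differed in 1 of the 36 each time, Tnfrsf17, by 1.67 and 1.74, where 1.44% and 2.16% of all genes passed.

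For 8 of the 36 genes, Ccl25, Ccr9, Ifngr1, Ifngr2, Il17a, Myd88, Nfkb1 and Relb, the effect of PAT in SPF mice was unlike that in GF mice past the threshold, as it was for 17.1% of all genes. Il17a had a mean log2 normalized count of 4.32 in SPF control mice and 2.95 in SPF PAT mice, against 2.64 in GF control and 3.19 in GF PAT mice, at counts of 4 to 26. Ccr9, the gut-homing receptor gene, was at 8.35 in SPF control and 7.31 in SPF PAT mice and at 6.81 and 7.07 in GF control and GF PAT mice. Both fell with PAT in SPF mice, with differences of -1.38 (adjusted p = 0.0217) and -1.03 (adjusted p = 0.00703). Ccl25, Ifngr1, Ifngr2 and Relb, an NF-κB subunit gene, rose with PAT in SPF mice by 0.79, 0.75, 0.69 and 0.81 (adjusted p between 0.00445 and 0.00833). For Ccl25, Ifngr1 and Ifngr2 this was toward their levels in GF mice. The SPF PAT mean of Relb, 11.97, lay past those of GF control (11.91) and GF PAT mice (11.78). Pigr itself did not pass for the difference between the PAT effects.

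Of 40 further genes of mucosal epithelial defence 19 were measured, and 8 passed between SPF control and GF control mice, 5 higher and 3 lower, where 42.1% of all genes passed, with a median of -0.09 against 0.08 over all genes. The inducible nitric oxide synthase gene Nos2 (2.85) and Pla2g2a (0.65) were among those higher, and the tetraspanin gene Cd9 (-0.92) and the flagellin receptor gene Tlr5 (-0.92) among those lower. Between SPF PAT and SPF control mice 4 of 19 passed, where 26.3% of all genes did, with Cd9 (0.64) and Tlr5 (0.71) higher and Nos2 (-1.75) and the defensin gene Defb1 lower. Cd9 and Tlr5 were also the 2 of 19 that passed for the difference between the PAT effects, where 17.1% of all genes did. Pla2g2a, whose pattern over mice was like that of Itln1, was the 1 of 19 that passed between SPF PAT and GF PAT mice (1.17, adjusted p = 0.0188) and between SPF PAT and GF control mice (0.84, adjusted p = 0.0395). It was 0.18 higher in SPF PAT than in SPF control mice (adjusted p = 0.429), whereas Itln1 was 0.54 higher there. In GF mice 0 of 19 passed in limma.

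**Figure D4:**
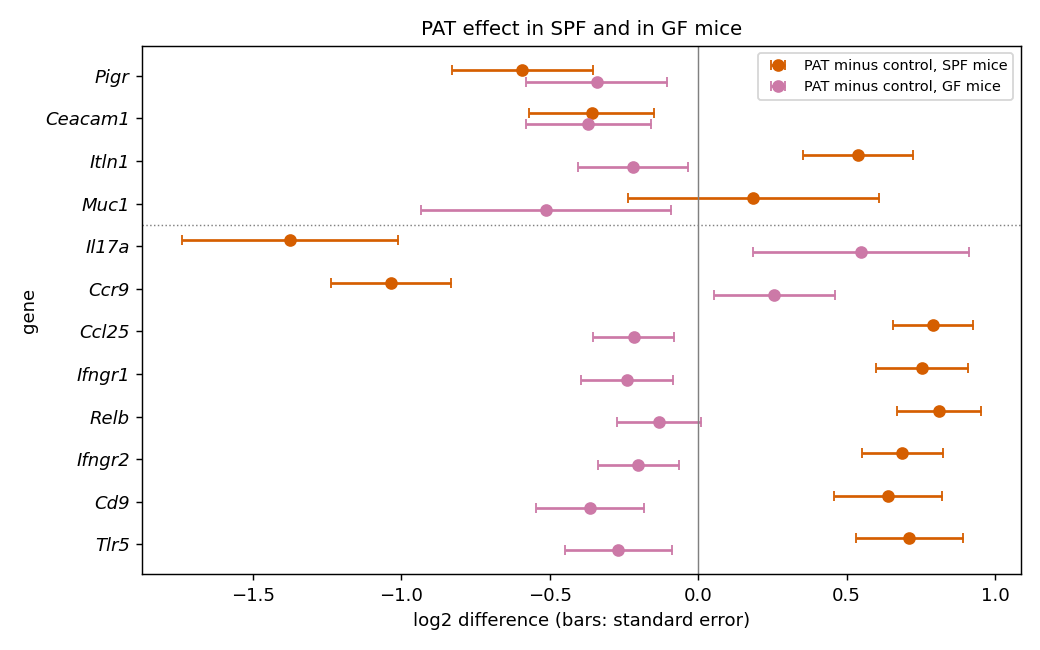
The log2 difference of PAT minus control (x axis, bars are standard errors from limma) is plotted for SPF mice and for GF mice, with the 4 epithelial defence genes above the dotted line and 8 genes of the lists below it, namely the 6 with the largest difference between the effects among the 8 IgA list genes past the threshold, and Cd9 and Tlr5. For Pigr and Ceacam1 both effects lie below 0 (-0.59 and -0.34, -0.36 and -0.37), for Itln1 they lie on opposite sides (0.54 and -0.22), and the 8 list genes have effects on opposite sides as well.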

How the data were processed

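Terminal ileum RNA of 12 mice was hybridized to the mouse immunology panel of NanoString nCounter probes, which are counted without reads or alignment. DESeq2 was the tool by which the authors scaled these counts before taking log2, and the deposited log2 values were used as given. Multiplied back by size factors of 0.830 to 1.25, every value gave a whole count within 0.01. The table's 28 entries for reference genes and control probes hold no value, so scaling by them was not run.

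Groups were taken from the labels. Differences were tested with limma 3.58.1 in R 4.3.3 (lmFit and eBayes), with all 12 mice, 1 mean per group and no filter, two-sided, and p-values were adjusted by the Benjamini-Hochberg method over the 556 genes of each comparison, with a threshold of 0.05. Alternatives were the methods' analysis of variance with Tukey HSD, an intensity trend, only the groups compared, robust estimation, quantile normalization, median centring, scaling to the total count, leaving out genes under a mean normalized count of 20, a pseudocount of 1, voom with TMM factors, and leaving out each mouse. The B cell covariate, with all mice and without SPF PAT mouse 21, was added after the data were seen, and 1 further gene of that list is not reported here. The fits were tested on simulated data.

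The genes, the lists and the motifs were chosen with earlier results of these data known. Genes named beside them are, for each, the 3 with the highest correlation among genes with a mean normalized count of at least 20, and those of the lists with the largest differences between PAT effects past the threshold. Other list genes were named after their values were seen. Promoter sequences are from RefSeq, GRCm38.p6, and all 5 genes matched by symbol.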

Additional observations from a re-analysis of the deposited data

Results flagged for a closer look

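The effect of PAT was unlike in SPF and GF mice, by limma's test of that difference, for 8 named genes of the lists around Pigr and mucosal defence, and all 3 mice of each group enter each value. The PAT effect in SPF mice minus that in GF mice, on the log2 scale, was -1.92 for Il17a and -1.29 for Ccr9. It was 1.01 for Ccl25, 0.99 for Ifngr1, 0.94 for Relb and 0.89 for Ifngr2 in the IgA and pIgR list. In the list of mucosal epithelial defence it was 1.0 for Cd9 and 0.98 for Tlr5. Adjusted p was between 0.0136 and 0.0322 for these 8 genes. They were named because they passed this test, as did 8 of 36 and 2 of 19 measured genes of the 2 lists. Of all 556 genes 17.1% passed it, so the lists were near the share of the panel. None of Itln1, Pigr, Ceacam1 and Muc1 passed this test, and groups of 3 mice were too small for a test of single mice that stand apart.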

How the results depend on the processing

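Pigr lost its call between SPF control and GF control mice (0.77) under Tukey HSD (0.77, adjusted p = 0.145), median centring (0.33) and quantile normalization (0.37). In each of these 0 of the 4 genes were called. With scaling to the total count 2 were called, where Ceacam1 passed (0.45). The B cell covariate also gave 2 (Ceacam1 0.63), where 48.6% of all genes passed. Between the same groups Itln1 turned sign under median centring (-0.39) and quantile normalization (-0.25), and so did Muc1 (-0.30 and -0.14). These scalings move the median of all genes, from 0.08 to -0.36 and -0.14 in that comparison and from -0.02 to 0.34 and 0.14 for SPF PAT minus SPF control. Relative to these medians Pigr stayed higher in SPF control mice. Itln1 is the highest gene in 11 mice, so quantile normalization gives it the same value in these by construction. Under that setting it differs between mice only through SPF control mouse 8, where Pigr was highest, so its results there do not test the groups. Between SPF PAT and SPF control mice Itln1 passed with a trend (0.54), a count minimum (0.54), scaling to the total (0.57) and voom (0.55), Pigr with scaling to the total (-0.56) and the B cell covariate (-0.86), and Ceacam1 with that covariate (-0.58). Of the 4 genes, those called then numbered 1, 1, 2 and 1 under the 4 settings and 2 with the covariate, where 25.5% of all genes passed. Ceacam1 turned to 0.22 under quantile normalization and Muc1 to -0.038 with the covariate. For the difference between PAT effects Itln1 passed with the count minimum (0.76, 1 gene called). Pigr turned to 0.29 under median centring and 0.067 under quantile normalization, and Ceacam1 to -0.076 with scaling to the total, -0.033 with voom and -0.42 with the covariate. Ceacam1 passed between SPF PAT and GF PAT mice under quantile normalization (0.86, 1 gene called). In the F-test, adjusted p under median centring and quantile normalization was 0.0941 and 0.564 for Itln1 and 0.284 and 0.268 for Pigr, with 0 and 1 genes called. Ceacam1 passed with a trend (0.0445), the count minimum (0.0456), quantile normalization (0.00699), scaling to the total (0.0194), voom (0.0383) and the covariate (0.00588). Apart from Itln1 under quantile normalization, the cause of these changes was not tested.

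Counts over all genes moved as follows. Tukey HSD called 142 genes for SPF control minus GF control, 55 for SPF PAT minus SPF control (76 with only the groups compared), 1 for SPF PAT minus GF PAT and 2 for SPF PAT minus GF control. With only the groups compared the last pair gave 0 and 0, and with median centring 1 and 0. SPF PAT minus GF control gave 6 genes with quantile normalization and 22 with the covariate, voom called 1 gene for GF PAT minus GF control, and the covariate left 48 genes for the difference between PAT effects. With the covariate and without SPF PAT mouse 21, Ceacam1 passed between SPF control and GF control mice (0.62, 2 of the 4 genes called) and in the F-test (0.0128), and Itln1 passed between SPF PAT and GF control mice (0.78, 1 gene called). Signs turned for Muc1 in the PAT effect within SPF mice (-0.97) and within GF mice (0.029), in the difference between these effects (-1.0) and for SPF PAT against GF PAT (-0.40) and GF control mice (-0.37), and for Ceacam1 in the difference between the effects (-0.37). All genes called then numbered 45 for SPF PAT minus SPF control, 4 for the difference between PAT effects and 4 for SPF PAT minus GF PAT.

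With each mouse left out in turn, the difference between SPF control and GF control mice ran from 0.65 to 0.88 for Pigr, -0.052 to 0.11 for Itln1, 0.29 to 0.60 for Ceacam1 and -0.16 to 0.37 for Muc1, with 0 to 1 of the 4 genes and 169 to 259 of all genes called. For SPF PAT minus SPF control it ran from 0.39 to 0.75 for Itln1, -0.82 to -0.30 for Pigr, -0.51 to -0.18 for Ceacam1 and -0.042 to 0.49 for Muc1, with 0 to 1 of the 4 and 64 to 232 of all genes called. For the difference between PAT effects it ran from 0.61 to 0.97 for Itln1, -0.48 to 0.039 for Pigr, -0.14 to 0.19 for Ceacam1 and 0.21 to 1.04 for Muc1, with 0 to 1 and 35 to 217 genes called. For SPF PAT minus GF PAT it ran from 0.66 to 1.02 for Itln1, with 0 to 1 and 1 to 11 called, and for SPF PAT minus GF control from 0.44 to 0.80 for Itln1, -0.052 to 0.46 for Pigr and -0.060 to 0.27 for Ceacam1, with 0 to 1 and 1 to 11 called. For GF PAT minus GF control it ran from -0.86 to -0.025 for Muc1, and all genes called numbered 0 to 1. F-test adjusted p ran from 0.00376 to 0.109 for Itln1, 0.00330 to 0.0964 for Pigr and 0.0303 to 0.152 for Ceacam1, with 0 to 3 and 84 to 217 called. No paired analysis was possible because the labels number each mouse singly and share no number between groups. Counting error was 21.8 to 50% for Muc1 and at most 0.789% for the other 3 genes.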

Other observations

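With deviations from the group means in place of the levels, as a description over 12 mice that share size factors, the genes most like each gene were others. For Ceacam1 they were Ube2l3, a ubiquitin-conjugating enzyme gene (r = 0.98), Ctnnb1, the β-catenin gene (r = 0.98), and Tnfrsf11a, the receptor gene RANK (r = 0.96), whose levels over all mice correlated with Ceacam1 by only -0.16, -0.24 and -0.28. For Pigr they were Pla2g2a (r = 0.96), Lair1, an inhibitory receptor gene of leukocytes (r = 0.95), and Ccl6 (r = 0.94). For Itln1 they were C4bp (r = 0.85), Pla2g2a (r = 0.84) and Ikbkap (r = 0.82), so C4bp and Pla2g2a were among the 3 most alike under both measures. For Muc1 they were Mbp (r = 0.83), Cebpb (r = 0.83) and Cd99 (r = 0.80).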
